A study of Mus musculus with 384 samples.

Results

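The genes described here encode molecular chaperones and their partners: the Hsp70 (Hspa), Hsp90, small heat shock (Hspb), Hsp60 and Hsp10 (Hspd1, Hspe1) and Hsp110 (Hsph1) proteins, the J-domain proteins (Dnaja, Dnajb, Dnajc) and the subunits of the cytosolic chaperonin TRiC (Tcp1 and the Cct genes). They were taken by symbol from rows of the count table that have a protein-coding record in the GENCODE M21 annotation, which gave 73 genes of 31617 rows. A further 4 annotated genes that match the same symbols (Dnajb3, Dnajb8, Hspb3 and Hspb7) are not rows of the table used here. The chaperonin subunit Cct6a is typed as a processed transcript rather than as protein-coding in that annotation. It is therefore not counted among the 73, and its values are given beside those of the other subunits.

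Chaperones hold or refold unfolded protein chains, some of them at the cost of ATP. J-domain proteins deliver chains to Hsp70 and start its ATPase, nucleotide exchange factors such as Hsph1 release them, and Hsp90 finishes the folding of kinases and receptors. Each compartment has its own set: the cytosol holds Hspa8, the Hsp90 pair and TRiC, mitochondria hold Hspa9, Hspd1 and Hspe1, and the endoplasmic reticulum holds Hspa5 (BiP) and Hsp90b1 (GRP94). Some of the cytosolic genes are switched on by heat shock factors, and those of the endoplasmic reticulum by the unfolded protein response.

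The study measured single mouse pluripotent stem cells by Smart-seq2, a full-length protocol without molecular identifiers. Formative stem (FS) cells were the lines 5ar1 and 5ar2, both grown with activin A at 3 ng/ml, the tankyrase inhibitor XAV939, which lowers Wnt signalling, and the retinoic acid receptor inverse agonist BMS493. Primed epiblast stem cells (EpiSCs) were the line AFX6, grown with activin A at 20 ng/ml, Fgf2 and XAV939, and the line AF32, grown with activin A at 20 ng/ml and Fgf2 alone. All 4 lines grew in serum-free N2B27 on fibronectin without feeder cells and were sorted 1 cell to a well after dissociation to single cells. Lines, not cells, are the replicates, so FS cells against EpiSCs is a comparison of 2 lines with 2, and each EpiSC medium is represented by 1 line, so that line, medium and preparation cannot be told apart. Whether the lines of a state came from separate embryos or preparations is not given in the labels, and p-values measure only the spread between these lines.

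Of the 384 cells, 326 had at least 3000000 counts and were kept: 90 of 5ar1, 90 of 5ar2, 66 of AFX6 and 80 of AF32. Their totals ran from 3022666 to 6686007 counts. The median kept cell had 11371 and 11567.5 genes with a count in the FS lines and 10328 and 10330.5 in the EpiSC lines. Of the identity markers, Pou5f1 lay between 490 and 644 counts per 1000000 (CPM) in the 4 lines, and Utf1 also overlapped between the states. Sox2, Otx2, Fgf5 and Dnmt3b were higher in both FS lines. Fgf5 was at 229 and 272 CPM in 5ar1 and 5ar2 and at 30.7 and 44.9 CPM in AFX6 and AF32. The 3 naive markers in the table summed to 3.68 CPM or less. Genes of the streak list went in different directions: T was at 39.1 CPM in AF32 and at 0.38 CPM or less elsewhere, whereas Eomes was at 61.3, 48.2, 6.62 and 5.84 CPM in the order 5ar1, 5ar2, AFX6, AF32, which is the order used for every set of 4 values below. Tubb3, on the neural list, was at 335 and 130 CPM in the FS lines and at 12.2 and 68.7 CPM in AFX6 and AF32. The other neural markers were low and did not share a direction. Sox1 and Pax6 overlapped between the states, with Sox1 highest in AF32 at 8.36 CPM and Pax6 highest in AFX6 at 4.13 CPM. Neurog2 was higher in both FS lines but at 0.195 CPM or less. The mesenchyme markers summed to 5.55, 38.6, 12.2 and 11.2 CPM with a median cell at 0 in every line and a highest cell of 2604 CPM in 5ar2. Single cells also reached 10109 CPM for the neural list in 5ar1 and 2395 CPM for the streak list in AF32, where the median cells were at 220 and 0.25 CPM. The part of these cell states in the values below was not tested.

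Chaperone transcripts made up 2.82% and 2.90% of all counts in the FS lines and 2.42% and 2.40% in the EpiSC lines. Summed over the 73 genes, the level was 28160, 28951, 24232 and 23950 CPM, so both FS lines stood above both EpiSC lines, by 1.19-fold on average. Single cells ran from 17047 to 35438 CPM in 5ar1, from 18885 to 35956 in 5ar2, from 10615 to 30531 in AFX6 and from 12765 to 31928 in AF32, and the cells of the lines overlapped widely. Of the members, 59 reached 10 CPM in at least 1 line, 25 stayed at or above 100 CPM in every line, and 22 had a count in every kept cell. As a background for the counts of genes below, 26.8% of all genes tested were higher in both FS lines than in both EpiSC lines, and 21.5% were lower in both. The 5 members under 1 CPM in every line were Hspa1b, Hspa1l, Hspb9, Dnajb7 and Dnajb13.

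**Figure D1:**
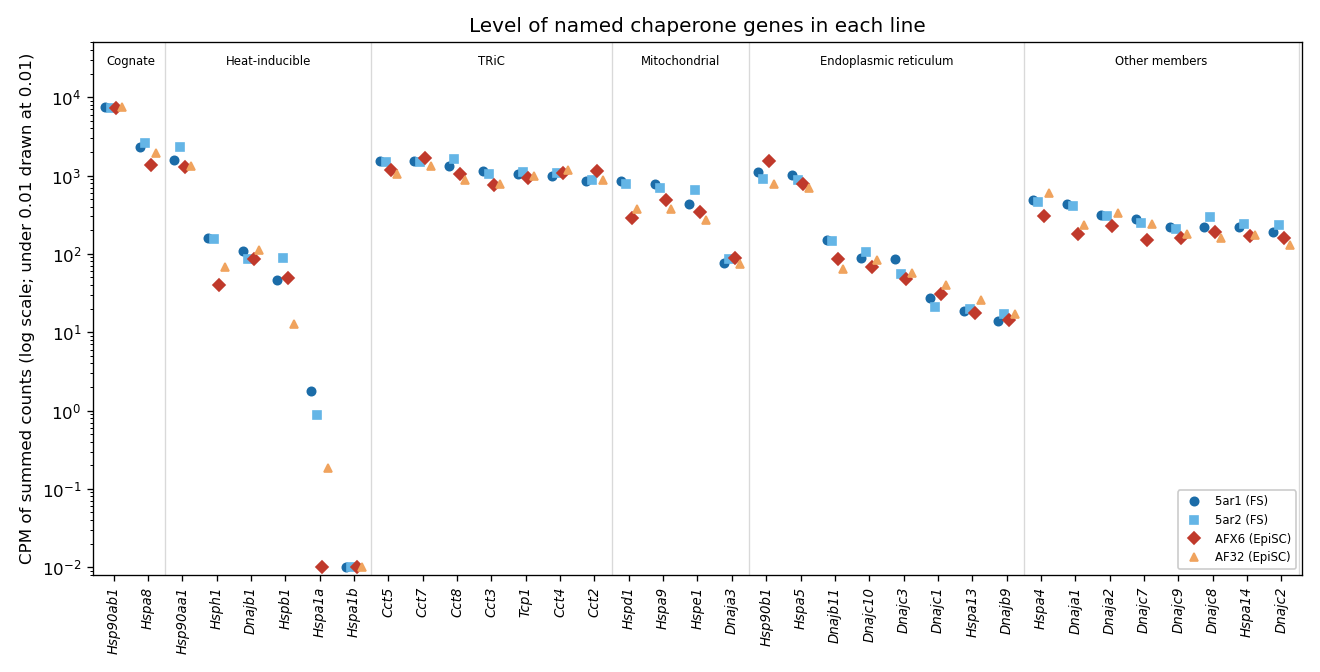
Level of each named chaperone gene in each line, as CPM of the counts summed over its kept cells, on a log axis; "other members" are those that reach 200 CPM in a line. Circles and squares are the FS lines and diamonds and triangles the EpiSC lines: Hsp90ab1 lies at the top in all 4, and Hspd1, Hsph1 and Dnaja1 show the FS lines set apart above the EpiSC lines.

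The most abundant member was Hsp90ab1, the constitutive cytosolic Hsp90. Its level was 7441, 7237, 7278 and 7418 CPM, the fourth highest mean of all genes in the table, and it alone supplied 26.4%, 25.0%, 30.0% and 31.0% of chaperone counts. The lines overlapped and were nearly level. The log2 fold change for FS against EpiSC lines was -0.01 ± 0.14 (2 lines a group). Here and below, the value after ± is a standard error (SE) from the edgeR fit over all genes described below. It is not computed from the lines of the named gene alone. Hsp90ab1 was also among the steadiest genes between cells. Its coefficient of variation (CV, SD over mean) across cells was 0.17, 0.14, 0.19 and 0.21. Its heat-responsive partner Hsp90aa1 was at 1576, 2322, 1299 and 1339 CPM, or, per kb of the principal transcript, 480, 708, 396 and 408 CPM against 2953, 2872, 2888 and 2944 CPM for Hsp90ab1.

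Hspa8, the constitutive Hsp70 of the cytosol, was counted at 2287, 2567, 1362 and 1924 CPM, with both FS lines above both EpiSC lines and a log2 fold change of 0.56 ± 0.22. A near-identical gene copy was counted beside it. A processed pseudogene on chromosome 5, Gm15459 (GRCm38 chr5:5781615-5783555, minus strand), whose annotated transcript matches that of Hspa8 at 99.7% of aligned bases over its whole length, was counted at 830, 932, 509 and 741 CPM. Across the cells of each line its level followed that of Hspa8 with a Spearman correlation of 0.98, 0.99, 0.96 and 0.96. Taken with the other 14 processed pseudogenes whose best match was Hspa8, it held 28.0%, 28.0%, 28.5% and 29.0% of the combined counts. That share was nearly the same in the 4 lines, so the combined levels of 3178, 3566, 1905 and 2709 CPM keep the order of the lines. The files cannot show whether the reads arose from Hspa8 or from the pseudogene. Over all members, 86 processed pseudogenes of the table matched 20 of the genes best, 12 of them over 5 CPM in a line, and after Hspa8 the share was 2.11% or less for every parent above 100 CPM in 5ar1.

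The heat-inducible members were examined apart, because their transcripts respond quickly to temperature, handling or proteotoxic stress. The list holds Hspa1a, Hspa1b, Hspb1, Hsph1, Hsp90aa1 and Dnajb1. Its summed level was 1892, 2652, 1476 and 1532 CPM, 1.51-fold higher in FS lines on average. Without 5ar2 the average was 1.26-fold, and most of the sum is Hsp90aa1. The other 5 genes together came to 316 and 331 CPM in the FS lines and 176 and 193 CPM in the EpiSC lines.

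Hspa1a and Hspa1b, the classical inducible Hsp70 genes that lie side by side on chromosome 17, were almost silent. Hspa1a had 775, 381, 0 and 65 counts in all, which is 1.80, 0.88, 0 and 0.18 CPM, and was seen in 18.9% and 14.4% of FS cells and 0% and 3.75% of EpiSCs. The 0 of 66 AFX6 cells allows a share of up to 5.44% by the exact 95% binomial interval. Its highest cell had 35.3 CPM, in 5ar1. A single AF32 cell held 96.1% of that line's counts. Hspa1b had 1 count in 1 AFX6 cell. Both genes are nearly identical in sequence and the authors kept uniquely mapped reads, so reads from either copy could be lost and these levels may be too low.

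Hsph1, an Hsp110 that acts as exchange factor for Hsp70, showed the largest difference among members of at least 10 CPM. It was at 160 and 154 CPM in the FS lines against 40.2 and 67.9 CPM in AFX6 and AF32, without overlap, with a log2 fold change of 1.54 ± 0.30 and an adjusted p of 0.19. In the FS lines 87 of 90 and 90 of 90 cells had at least 5 CPM, a limit chosen after the values were seen, against 33 of 66 AFX6 cells and 57 of 80 AF32 cells. Among the cells past that limit the median was 169 and 143 CPM in FS lines and 71.4 and 85.8 CPM in EpiSC lines. In AFX6 the level across cells followed the number of genes detected with a Spearman correlation of 0.53, compared with values between -0.06 and 0.08 in the other lines. Dnajb1, the Hsp40 that is induced with Hsp70, was at 108, 85.8, 86.5 and 112 CPM, and the states overlapped.

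Hspb1 (Hsp27), a small heat shock protein that also binds actin filaments, differed more between the EpiSC lines than between the states. It was at 45.9, 89.8, 49.7 and 12.7 CPM, and the log2 fold change was 1.10 ± 0.78, which was 0.42 without AF32, 0.53 without 5ar2 and 2.43 without AFX6. Its spread across cells was wide, with a CV of 2.51, 1.51, 1.35 and 3.08. A single 5ar1 cell with 1100 CPM held 25.1% of that line's counts, and a single AF32 cell with 316 CPM held 27.1%. At least 5 CPM was found in 74.4%, 95.6%, 69.7% and 26.2% of cells. Of 10 immediate early genes, which also respond to handling, 5 were lower in both FS lines than in both EpiSC lines and 1, Atf3, was higher, beside 21.5% and 26.8% of all genes. Fos was at 2.04, 1.95, 4.97 and 35.7 CPM and Egr1 at 20.1, 37.6, 66.7 and 163 CPM. The part of handling in the levels of heat-inducible genes was not tested.

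**Figure D2:**
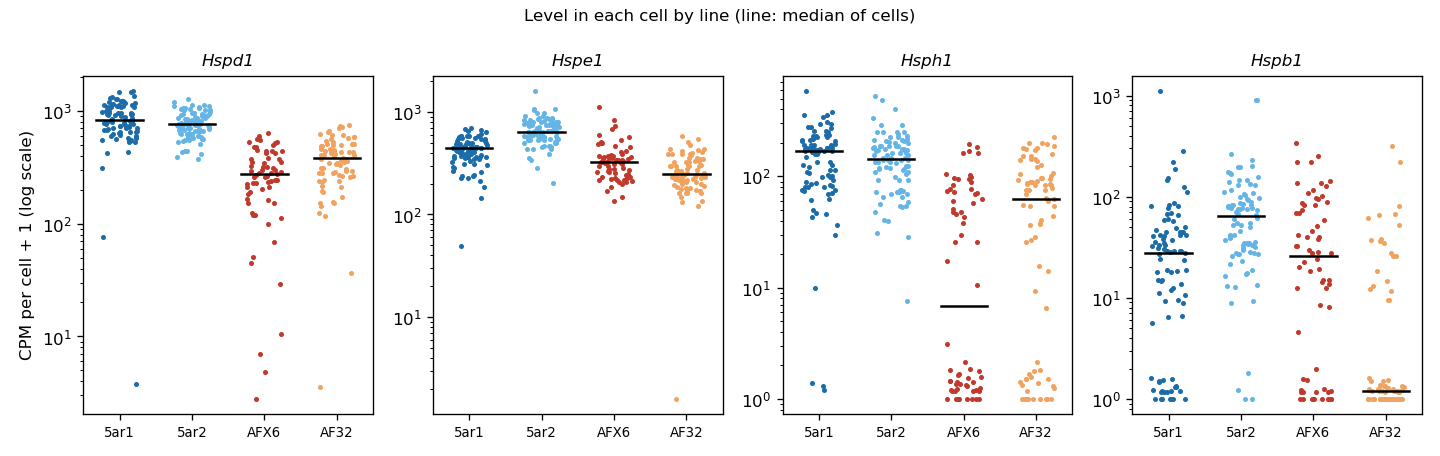
Level of Hspd1, Hspe1, Hsph1 and Hspb1 in each kept cell by line, as CPM + 1 on a log axis, with a bar at the median of the cells. Hspd1 shows 2 FS clouds around 828 and 766 CPM above 2 EpiSC clouds around 273 and 380 CPM, whereas Hsph1 in AFX6 and Hspb1 in AF32 have many cells at or near 0.

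Among the fixed groups of members, the 4 mitochondrial chaperones listed had the widest gap in summed level between the states. The list does not hold every mitochondrial member and was chosen with earlier results known. Summed over Hspd1, Hspe1, Hspa9 and the J-domain protein Dnaja3, the level was 2140 and 2210 CPM in the FS lines and 1213 and 1100 CPM in the EpiSC lines, 1.88-fold on average and between 1.79-fold and 1.98-fold when each line was left out. Of the 4 genes, 3 were higher in both FS lines and none was lower. Hspd1, the Hsp60 that forms the folding chamber of the matrix, was at 857, 778, 289 and 379 CPM, with a log2 fold change of 1.29 ± 0.19 and an adjusted p of 0.19. Its lowest, median and highest cells were 2.79, 828 and 1484 CPM in 5ar1, 374, 766 and 1258 CPM in 5ar2, 1.79, 273 and 637 CPM in AFX6 and 2.54, 380 and 740 CPM in AF32. The median FS cell thus lay above the highest EpiSC. Hspa9 (mortalin), the Hsp70 that pulls precursors into the matrix, was at 780, 684, 491 and 378 CPM, a log2 fold change of 0.74 ± 0.21. Dnaja3, its J-domain partner, was at 75.9, 84.9, 89.6 and 73.7 CPM and overlapped.

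Hspe1, the Hsp10 lid of the chamber, was at 427, 663, 342 and 269 CPM, a log2 fold change of 0.82 ± 0.30. It did not keep a fixed proportion to Hspd1, its partner in the complex: the ratio of Hspe1 to Hspd1 counts was 0.50, 0.85, 1.18 and 0.71. Per kb of principal transcript these ratios become 1.56, 2.67, 3.70 and 2.23. Between cells the pair was correlated at a Spearman rho of 0.49, 0.39, 0.18 and 0.31. The genes lie head to head on chromosome 1, and their annotated exons share 112 bases on opposite strands, which is 4.24% of the exonic bases of Hspd1 and 7.60% of those of Hspe1. The stretch between their starts is printed because it serves both genes. It is read on the strand of Hspd1 (GRCm38.p6 chr1:55088024-55088111, minus strand, RefSeq promoters), and capitals mark the trinucleotides of a heat shock element, the binding motif of heat shock factors, searched as GAANNTTCNNGAA on both strands:
Hspd1: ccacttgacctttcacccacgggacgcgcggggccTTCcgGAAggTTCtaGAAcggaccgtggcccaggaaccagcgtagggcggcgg
The motif occurs here as 2 overlapping matches, 144 and 139 bases before the RefSeq start of Hspd1. Of all 32851 mouse promoters in the RefSeq table, each running from 250 bases before to 50 bases after a start, 0.603% hold the motif. Among the 59 members with a promoter in that table, 4 held it: Hspd1, Hspe1, Hsph1 and Dnajb6. Those 59 have 78 promoters, and this is a count of genes, unlike the share over promoters. In Hsph1 the match does not lie wholly within the 250 bases before the start. Dnajb6, a J-domain protein that blocks aggregation, carries 1 match (chr5:29735817-29735899, plus strand):
Dnajb6: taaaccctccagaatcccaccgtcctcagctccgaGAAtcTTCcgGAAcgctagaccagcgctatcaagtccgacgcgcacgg
These 4 genes, of which Hspd1 and Hspe1 share a single stretch, were higher in both FS lines, as were 26.8% of all genes and 39.4% of members. Their log2 fold changes ran from 0.17 ± 0.18 for Dnajb6, at 83.6, 88.4, 78.7 and 73.7 CPM, to 1.54 for Hsph1. A match in such a window is a description of its letters, and the promoters of Hsp90aa1, Hsp90ab1, Hspa8 and Hspa9 were not analysed here.

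Factors that work with the mitochondrial chaperones were also listed, and their counts lie near the shares over all genes. Of the 5, Grpel1, a nucleotide exchange factor of Hspa9, was higher in both FS lines (233, 198, 173 and 163 CPM), Hscb, which acts in iron-sulphur transfer, was lower (12.5, 18.0, 30.3 and 37.8 CPM), and Trap1, Grpel2 and Clpb overlapped.

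TRiC is a double ring of 8 different subunits that folds actin, tubulin and many other proteins. The 7 subunits counted as members summed to 8430, 8691, 7731 and 7079 CPM, 1.16-fold higher in FS lines. The subunits did not all lie on the same side. Cct3, Cct5, Cct8 and Tcp1 were higher in both FS lines, Cct2 and Cct4 were lower, and Cct7 overlapped. Cct8 had the largest difference, at 1333, 1629, 1032 and 889 CPM, a log2 fold change of 0.62 ± 0.20. Cct2 was at 850, 869, 1139 and 872 CPM, with 5ar2 and AF32 nearly level, and Cct4 was at 988, 1062, 1069 and 1160 CPM. Cct6a, the subunit outside the rule, was at 1133, 1133, 683 and 699 CPM, and its log2 fold change of 0.71 ± 0.14 exceeded that of the other 7.

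The 8 subunits were also compared within each line after scaling to transcript length. Levels per kb of principal transcript ran from 398 to 835 CPM in 5ar1, from 427 to 806 in 5ar2, from 278 to 681 in AFX6 and from 285 to 569 in AF32, so the highest was 2.10, 1.89, 2.45 and 2.00 times the lowest. Cct5 was the highest in both FS lines and in AF32 and Cct7 in AFX6. The lowest was Cct4 in the FS lines and Cct6a in the EpiSC lines. Between cells, the 21 pairs of the 7 members had median Spearman correlations of 0.21, 0.28, 0.42 and 0.29, all of them above 0, where the 595 pairs among the 35 members of at least 50 CPM had medians of 0.05, 0.06, 0.13 and 0.10. Of the 9 listed TRiC cofactors, which include prefoldin and the phosducin-like proteins, 1 was higher and 3 were lower in both FS lines. Vbp1, a prefoldin subunit and the most abundant of them, was at 168, 183, 281 and 184 CPM.

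**Figure D3:**
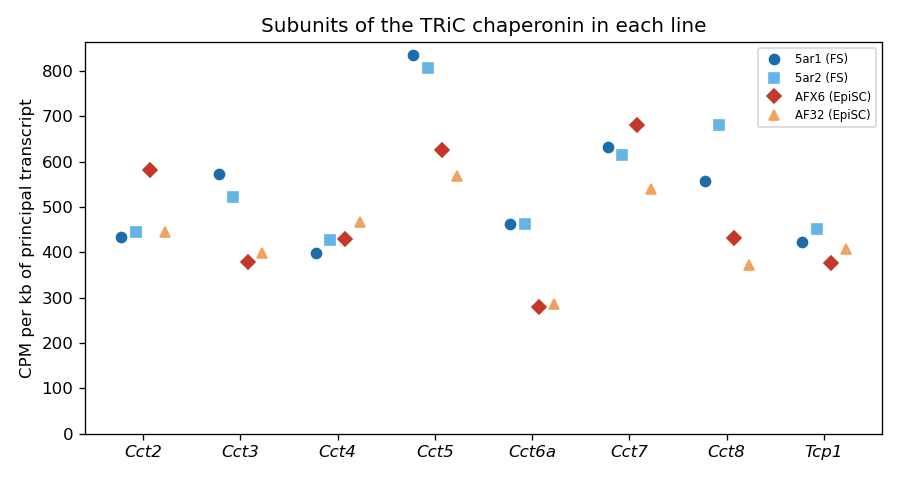
Subunits of the TRiC chaperonin, as CPM per kb of the principal transcript in each line, on a linear axis from 0. All values lie between 278 and 835, with Cct6a, Cct3, Cct5 and Cct8 set apart by state and Cct2 and Cct4 close together except for AFX6 in Cct2.

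The endoplasmic reticulum members gave a mixed picture. Their sum was 2503, 2155, 2561 and 1747 CPM, with AFX6 the highest line and AF32 the lowest, and the average of FS over EpiSC lines was 1.08-fold, which became 0.909-fold without AF32 and 1.33-fold without AFX6. Of 8 genes, Hspa5, Dnajb11 and Dnajc10 were higher in both FS lines, Dnajc1 was lower and 4 overlapped. Hspa5 (BiP), the Hsp70 of this compartment, was at 1026, 889, 769 and 690 CPM with a log2 fold change of 0.38 ± 0.17. Dnajb11 (ERdj3), which hands chains to BiP, was at 148, 145, 86.3 and 63.6 CPM, a log2 fold change of 0.96 ± 0.23 and an adjusted p of 0.19. Hsp90b1, the Hsp90 of the compartment, went the other way between lines: at 1096, 904, 1527 and 771 CPM it was highest in AFX6 and lowest in AF32. The others were less abundant, with Dnajc3 (p58IPK) between 47.7 and 85.2 CPM, Dnajc10 (ERdj5), a disulphide reductase, between 68.3 and 105 CPM, Dnajc1 between 21.0 and 40.3 CPM, and Hspa13 and Dnajb9 at 25.8 CPM or less in every line.

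The promoters of Hspa5, Hsp90b1 and Dnajc3 are shown because they carry the endoplasmic reticulum stress element, the site of the unfolded protein response, searched as the letters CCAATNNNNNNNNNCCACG on both strands and marked in capitals. It occurs in 0.119% of all promoters of the table and in these 3 of the 59 members, which have 78 promoters. The first is a share of promoters and the second a count of genes, so they are unlike measures. Hspa5 has 1 match 65 bases before the start (GRCm38.p6 chr2:34771990-34772078, plus strand), Hsp90b1 has 2 matches in opposite directions (chr10:86705498-86705691, minus strand) and Dnajc3 has 1 match 105 bases before the start (chr14:118937792-118937880, plus strand):
Hspa5: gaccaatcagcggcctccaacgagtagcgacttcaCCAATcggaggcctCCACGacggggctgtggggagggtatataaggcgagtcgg
Hsp90b1: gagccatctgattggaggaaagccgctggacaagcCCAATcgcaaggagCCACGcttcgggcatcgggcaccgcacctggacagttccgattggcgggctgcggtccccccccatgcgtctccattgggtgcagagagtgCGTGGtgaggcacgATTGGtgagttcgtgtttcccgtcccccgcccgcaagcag
Dnajc3: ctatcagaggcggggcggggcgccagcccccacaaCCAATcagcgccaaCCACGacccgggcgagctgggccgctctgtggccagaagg
Between cells the levels of Hspa5 and Hsp90b1 went together in every line, with a Spearman rho of 0.64, 0.69, 0.51 and 0.44, and Hspa5 was also correlated with Calr (0.58, 0.58, 0.63 and 0.49) and Manf (0.65, 0.59, 0.49 and 0.34), which are lumenal calcium-binding and secreted factors of the same response. Hspa5 and Dnajc3 were less alike, at 0.52, 0.09, 0.13 and 0.30. Across the 16 other genes listed for the response, 6 were higher and 3 lower in both FS lines. Atf4, a transcription factor of the stress response, was at 531, 840, 203 and 366 CPM, and Calr was at 292, 267, 519 and 401 CPM. Sil1, the exchange factor of BiP, was at 39.8, 33.2, 88.5 and 88.1 CPM, a log2 fold change of -1.28 ± 0.20.

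The remaining members are mostly J-domain proteins. Dnaja1, the main cytosolic partner of Hspa8, was at 433, 410, 180 and 233 CPM, with a log2 fold change of 1.02 ± 0.19 and an adjusted p of 0.19, and its cells overlapped, with highest cells of 488 and 533 CPM in the EpiSC lines and medians of 398 and 397 CPM in the FS lines. Dnajc11, which belongs to the complex that shapes mitochondrial cristae, was at 199, 168, 108 and 104 CPM, and Dnajc15, a J-domain protein of the inner mitochondrial membrane, at 95.1, 122, 55.5 and 75.9 CPM. Dnajc25 completed the 10 members with the largest difference upward in FS lines, at 10.8, 6.49, 5.76 and 3.70 CPM. Downward, the 10 members of at least 10 CPM in a line with the largest difference had low levels. Dnajc4 was at 12.0, 14.5, 32.4 and 29.2 CPM (log2 fold change -1.22 ± 0.27, adjusted p 0.19), Dnajb2, which serves ubiquitin-dependent disposal and is best known from neurons, at 9.07, 14.0, 29.8 and 23.7 CPM, and Hspa4l, an Hsp110 relative, at 29.6, 15.8, 53.8 and 46.9 CPM. Hspb11, which despite its symbol is a subunit of the intraflagellar transport complex, was at 18.2, 20.3, 34.5 and 34.7 CPM. Hspb8, Dnajc27, Dnajb4, Dnajc22, Hspa2 and Dnajc1 made up the rest of those 10, with log2 fold changes between -0.83 and -0.58. By family, 0 of 6 Hspb genes were higher in both FS lines and 3 were lower. Of these 3, Hspb9 was under 1 CPM in every line and Hspb11 is the transport subunit named above. Hspb8 was nearly level between 5ar2 and AF32, at 29.2 and 30.4 CPM. Of the 12 Hspa genes tested, 6 were higher and 2 lower, beside 26.8% and 21.5% of all genes.

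**Figure D4:**
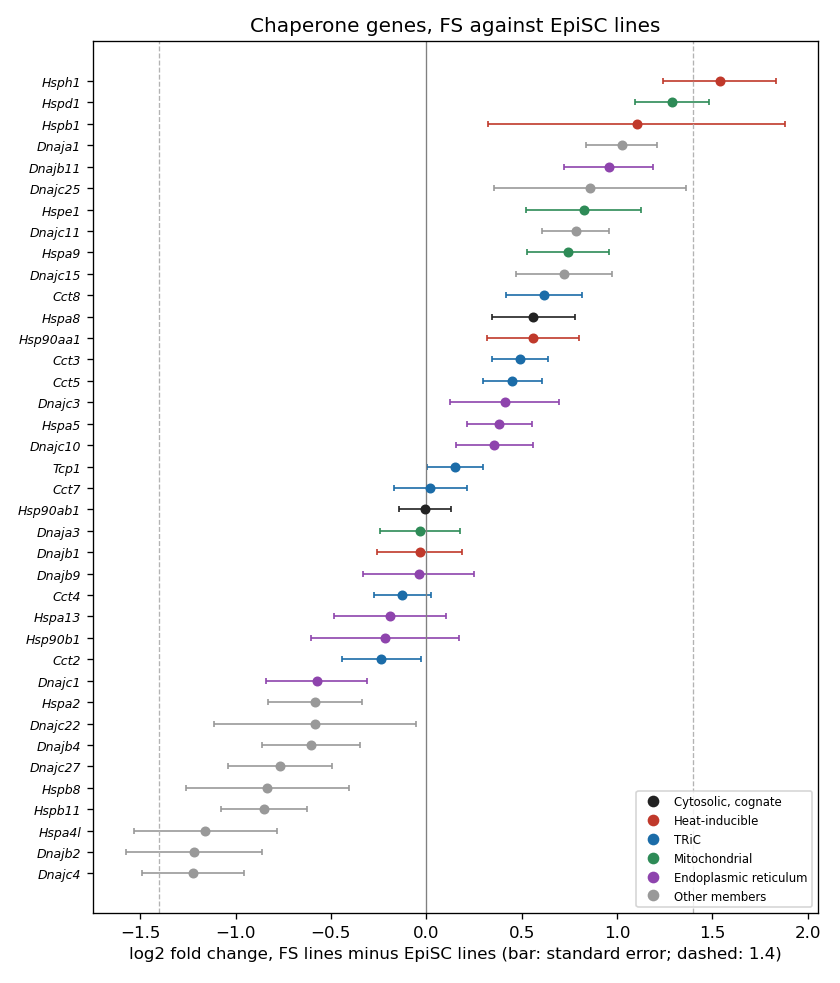
Log2 fold change of FS against EpiSC lines with its standard error for the named members of at least 10 CPM in a line, from the fit over all genes; dashed lines stand at 1.4 in each direction. Hsph1 lies past the dashed line at 1.54 and Dnajc4 is the lowest at -1.22, and no member passed the adjusted p threshold.

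The comparison of the states was fitted over all genes with edgeR's quasi-likelihood test on counts summed per line. A gene was called where its p, adjusted by the Benjamini-Hochberg method, was below 0.05 and its log2 fold change lay beyond 1.4 in either direction. This called 0 of 22606 genes (0.0%) and 0 of the 71 members that passed the filter on low counts. The smallest adjusted p among members was 0.19, so every difference between the states given here is one that did not pass this test. An unadjusted p under 0.05 was reached by 18 members, or 25.4%, beside 3636 genes or 16.1% of all tested. Of protein-coding genes alone, the type that members were drawn from, 2885 of 14757 tested reached it. DESeq2, run as an alternative, called 2 members, Hsph1 (1.51, adjusted p 5.6e-04) and Dnajc28 (-1.46, adjusted p 0.0013, at 3.21 to 9.50 CPM), beside 6.89% of the genes with an adjusted p. Regardless of fold, 10 members had a DESeq2 adjusted p under 0.05. For this looser rule no share over all genes is given here, and the 6.89% is not its background. With limma on log2 mean CPM, 0 genes were called and 3533 had an unadjusted p under 0.05. A single value compared over 2 lines and 2 lines cannot give an exact two-sided permutation p below 0.333.

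Counted by the order of the lines alone, 28 members (39.4%) were higher in both FS lines than in both EpiSC lines, beside 26.8% of all genes tested, and 16 (22.5%) were lower in both, beside 21.5%. Of the 14757 protein-coding genes tested, 3990 were higher and 3582 lower in both FS lines. The members' median log2 fold change was 0.08 and that of all genes tested -0.01. The downward share therefore lies near the background and the upward share above it, and the difference from the background was not tested. For co-chaperones, a list of 18 genes outside the members, 9 were higher in both FS lines and none was lower, with a median of 0.29. Among them Ahsa1, which activates the ATPase of Hsp90, was at 336, 277, 136 and 144 CPM, Hspbp1, an exchange factor of Hsp70, at 135, 149, 77.1 and 86.3 CPM, and Fkbp4, the most abundant, at 1626, 1606, 1390 and 1319 CPM. Heat shock factors and their other targets were divided, with 3 of 10 higher and 4 lower: Hsf1 itself was at 80.2, 72.0, 84.9 and 84.7 CPM and Hsbp1, its binding protein, at 109, 120, 186 and 238 CPM, whereas Chordc1, an Hsp90 partner, was at 104, 109, 55.2 and 59.9 CPM.

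Within a state, 0 of 58 members with at least 10 CPM in 1 of the lines differed by 2-fold or more between 5ar1 and 5ar2, and 2 did, Hspb1 and Hspb8, when only cells of at least 4000000 counts were used. Of all such genes in all kept cells, 1.35% were at least 2 times higher in 5ar2 and 2.57% at least 2 times higher in 5ar1. The members' count in all kept cells lies near this background, which was not counted for the deeper cells. The widest ratios were those of Hspb1, 1.95 times higher in 5ar2 (95% interval 1.92 to 1.99), and Hspa4l, 1.87 times higher in 5ar1 (1.81 to 1.92). Hspe1 was 1.55 times higher (1.54 to 1.56) and Hsp90aa1 1.47 times higher (1.47 to 1.48) in 5ar2, while Hspd1 was at 857 and 778 CPM. In the other direction, Dnajc13, Dnajc25, Dnajc18 and Dnajc3 were 1.56 to 1.71 times higher in 5ar1. These are exact conditional intervals that cover only the counting error of 2 pooled lines, and reads that carry no molecular identifier may be copies of the same molecule.

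Between the EpiSC lines, which differ in medium, 2 of 58 members passed 2-fold. Hspb1 was 3.91 times higher in AFX6 (3.78 to 4.04), where 7.14% of all such genes were at least 2 times higher. Dnajc22, a J-domain protein of low level here, was 2.39 times higher in AF32 (2.28 to 2.51), where 11.3% of genes were. Just inside 2-fold lay Hsp90b1, 1.98 times higher in AFX6 (1.97 to 1.99), and Hspa4, an Hsp110 relative, 1.94 times higher in AF32 (1.93 to 1.96). Hsph1 was 1.69 times, Dnajc7 1.60 times and Hspa8 1.41 times higher in AF32, and Hspb8 1.77 times higher in AFX6.

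Several members are on a chromosome whose overall expression differed in a line. Relative to the median autosome, and with members left out, the median AF32 cell was at 1.29 for chromosome 11 and 1.21 for chromosome 8, and the median 5ar2 cell at 1.28 for chromosome 19 and 0.98 for chromosome 16, where 32 of 90 cells were over 1.2. Hspa4, Cct4 and Dnajc7 lie on chromosome 11 and Dnaja2 and Dnajb1 on chromosome 8, and all 5 had their highest level among the EpiSC lines in AF32. Across AF32 cells the level of Dnaja2 followed that of its chromosome with a Spearman rho of 0.57, Dnajb1 at 0.37, Cct4 at 0.28, Hspa4 at 0.24 and Dnajc7 at 0.12. Across 5ar2 cells, Cct8 on chromosome 16 followed its chromosome at 0.57, Dnaja3 at 0.28 and Dnajb11 at 0.26, and Dnajc4 on chromosome 19 at 0.25. Chromosomes 2 and 10 were over 1.2 in 29 and 18 of 80 AF32 cells, although their median cells were at 0.99 and 0.98. On chromosome 10, Cct2 followed its chromosome at 0.54 and Hsp90b1 at 0.46, and on chromosome 2 the values ran from -0.02 for Hspa5 to 0.34 for Dnajc5. The part of the chromosomes in the differences between lines was not tested.

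From cell to cell, chaperones varied about as much as other protein-coding genes of the same level. Among genes of at least 1000 CPM the median CV was 0.24, 0.22, 0.36 and 0.32 for members and 0.24, 0.23, 0.36 and 0.32 for all genes. Between 200 and 1000 CPM it was 0.38, 0.33, 0.57 and 0.45 for members and 0.39, 0.36, 0.55 and 0.51 for all. The CV of the chaperone sum was 0.12 and 0.09 in FS lines and 0.18 and 0.16 in EpiSC lines, a ratio of 1.56 between the states. TRiC behaved the same way (ratio 1.66). Among the full fixed lists of members, the endoplasmic reticulum sum varied most, at 0.46, 0.42, 0.45 and 0.47, with no such gap. The heat-inducible genes without Hsp90aa1 varied more, at 0.56, 0.55, 0.72 and 0.63. The sum of Hspa8 and Hsp90ab1, at 0.20, 0.16, 0.19 and 0.19, also overlapped between the states. Hspa8 was an exception in the other direction: its CV was 0.55 and 0.48 in the FS lines and 0.46 and 0.30 in the EpiSC lines, where all genes above 1000 CPM had a 90th percentile of 0.41, 0.36, 0.57 and 0.48.

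That spread of Hspa8 in FS cells was shared with other genes. Single cells ran from 378 to 5841 CPM in 5ar1 and from 544 to 7732 CPM in 5ar2. Among protein-coding genes of at least 50 CPM, ranked by the lower of the 2 correlations, the genes most like it in both FS lines were Hspa5 (rho 0.62 and 0.67), the mitotic gene Cdc20 (0.49 and 0.56), Calr (0.59 and 0.47) and Dnaja1 (0.61 and 0.47). The most opposite were Chac1 (-0.68 and -0.54) and Trib3 (-0.72 and -0.49), which are induced by ATF4. Of the genes of at least 50 CPM, 4027 in all, 29 exceeded 0.3 in both FS lines and 5 did so in both EpiSC lines. This was not particular to Hspa8, and the direction varied by member. The like counts in FS and EpiSC lines were 17 and 6 for Hspa5, 27 and 3 for Hspb1, 39 and 17 for Hspa9 and 19 and 45 for Hspd1. Hspa8 and Hspa5 were correlated at -0.27 in AFX6 and 0.26 in AF32, whereas Hspa8 and Dnaja1 were correlated in all 4 lines, at 0.61, 0.47, 0.57 and 0.34. Hspa8 did not track total counts (rho between 0.02 and 0.12) or genes detected (0.02 to 0.14). The points are cells of 1 line that share a library preparation, and the genes compared were chosen after their values were seen.

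**Figure D5:**
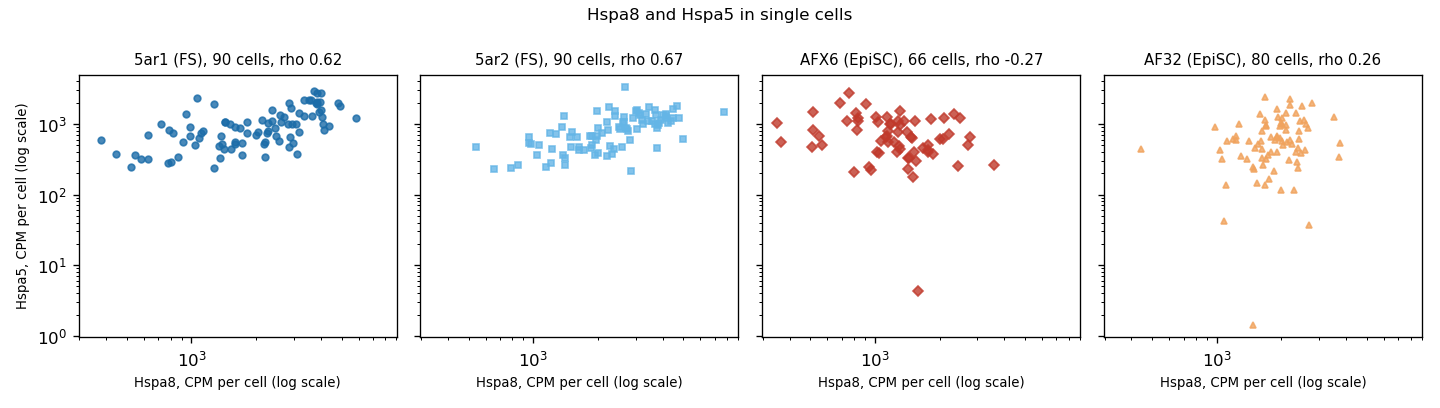
Hspa8 against Hspa5 in single cells of each line, both as CPM on log axes, with the number of kept cells and the Spearman correlation above each panel. The FS lines show a rising cloud (0.62 and 0.67), AFX6 a weakly falling one (-0.27) and AF32 a weakly rising one (0.26), and the lowest cell of each EpiSC line lies far below the rest for Hspa5.

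Other members kept different company. The 5 genes most like Hspa9 in the FS lines were Asns (0.53 and 0.48), Gars (0.52 and 0.47), Phf10 (0.47 and 0.46), Phgdh (0.45 and 0.52) and Eprs (0.46 and 0.45), of which all but Phf10 serve amino acid supply or tRNA charging. With Hspa8 it was at -0.25 and -0.02. Hspb1 was most like Csrp1 (0.56 and 0.56), Tpm1 (0.50 and 0.52), Pdlim7 (0.50 and 0.48) and Cnn2 (0.54 and 0.47), which are genes of the actin cytoskeleton. The most opposite to it were Sars (-0.46 and -0.42), a tRNA ligase, and the glycolytic genes Pgk1 (-0.41 and -0.53) and Ldha (-0.38 and -0.57). In AFX6 and AF32 Hspb1 and Tpm1 were at 0.31 and 0.24 and Csrp1 at 0.21 and 0.06. Hspd1 was most like Rpa2 (0.42 and 0.43) and Hspe1 in FS lines, and in EpiSC lines like Cct3 (0.49 and 0.45). The heat-inducible genes themselves were hardly correlated: Hsph1 and Dnajb1 were at 0.06, 0.15, 0.04 and 0.24, and Hsph1 and Hsp90aa1 at -0.01, -0.09, 0.34 and 0.22. Median correlations over the 6 pairs of Hsph1, Dnajb1, Hsp90aa1 and Hspb1 were 0.09, 0.08, 0.16 and 0.10, close to those over all members.

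For a few members the counting itself sets a limit. Exons of other genes cover 71.9% of the exonic bases of Hspa1l, 44.1% of those of Dnaja4, 30.2% of those of Hspb2, where the neighbour is the crystallin gene Cryab, and 26.2% of those of Dnajc30, all on the opposite strand. Smart-seq2 does not mark strand, so reads there cannot be assigned. Hspb2 was at 0.90, 5.63, 4.85 and 0.10 CPM and Dnaja4 at 1.85, 0.72, 0.08 and 2.20 CPM, and neither state was set apart. The other 22 members with any overlap had less than 20% of their bases covered.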

How the data were processed

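Raw counts per gene and single cell were deposited by the authors, who aligned paired-end Smart-seq2 reads with STAR 2.7.3a to GRCm38.p6 and counted uniquely mapped reads with featureCounts 2.0.0, as the methods and the submitters' processing notes state. A second deposited table holds depth-corrected sctransform values, whole numbers treated as a score, for 326 cells. Which sctransform output it holds is not given in the sources used here, and it served only as an alternative for the spread between cells. Genes were named with GENCODE M21, which may differ from the annotation the authors used.

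Cells of at least 3000000 counts were kept, and counts were summed per line and expressed as CPM. The states (5ar1 and 5ar2 against AFX6 and AF32, no covariate) were compared by the quasi-likelihood test of edgeR 4.0.16, after filterByExpr and TMM scaling. The fit was also run on simulated counts, and how many true changes it recovered is not given here. DESeq2 1.42.0 and limma 3.58.1 (log2 of CPM + 1) were alternatives. Fold intervals are exact conditional 95% intervals and cover counting error only. Transcripts of processed pseudogenes were matched with minimap2 2.31-r1302, and promoters came from RefSeq (GRCm38.p6). Levels per length used the longest principal transcript. Chromosome levels are the mean over genes of at least 20 CPM of each gene relative to its mean, with values over 3 set to 3.

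Members and gene lists were chosen with earlier results of these data known. Named were all genes of the fixed lists of members, Hspa8, Hsp90ab1 and the 10 members of at least 10 CPM with the largest difference in each direction. For most lists of genes that are not members, counts are given with a few examples, picked with their values known. Others were named after their values were seen. All gene columns belonged to labelled cells.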

Additional observations from a re-analysis of the deposited data

How the results depend on the processing

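No gene and no member passed the threshold with edgeR under DESeq2 size factors, without the filter on low counts, with at least 4000000 counts, with all 96 cells of each line, with thinned cells, without each line, without cells of few genes (chosen after seeing the data), or by adjusted p alone, nor with limma, and with edgeR 1208 to 5192 genes had an unadjusted p under 0.05 in these fits. DESeq2 called 1467 genes and 2 members. Members higher in both FS lines numbered 30 to 37 and those lower 17 to 30 when each line was left out, and the other scalings and cell sets kept both counts within 1.5 times. Leaving out 5ar1 gave 25 lower and AFX6 gave 30, against 16, since fewer lines must then agree. The shares over all genes were not counted with a line left out. The log2 difference of the chaperone sum, 0.25, was 0.22 with DESeq2 size factors and 0.29 with all cells, and 0.23 to 0.27 without each line. Without each line, the heat-inducible difference of 0.60 ranged from 0.33 to 0.82, that of TRiC from 0.15 to 0.27, the mitochondrial one from 0.84 to 0.98, the endoplasmic reticulum one from -0.14 (without AF32) to 0.41 and that of Hspa8 with Hsp90ab1 from 0.064 to 0.18. The log2 fold change of Hsp90b1, -0.22, turned to 0.39 without AFX6 and was -0.64 without AF32. Adding pseudogene counts to their parents, also chosen after seeing the data, kept each sum's direction. Between 5ar1 and 5ar2, 2 members (Hspb1 and Hspb8) passed 2-fold with at least 4000000 counts and 9 passed 1.5-fold. Between AF32 and AFX6, 4 passed 2-fold with mean CPM per cell, 3 with TMM or DESeq2 size factors (Hsp90b1 added), and 9 passed 1.5-fold. Shares over all genes were not counted at these other settings, so these member counts have no background beside them. The ratio of spread in the endoplasmic reticulum sum, 1.05, was 0.97 with at least 4000000 counts. The causes of these changes were not tested. No paired analysis was possible because the numbers in the labels count cells within a line and pair no samples.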
